A study of Danio rerio with 15 samples.

Results

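The first-wave genes described here are the 170 genes, of 23726 in the table, that were silent or nearly so in wildtype zebrafish embryos at 3 hours post fertilization (hpf) and clearly present 1 hour later. A gene was a member when it lay below 1 FPKM in both wildtype libraries at 3 hpf and at 5 FPKM or more in both wildtype libraries at 4 hpf. FPKM is a fragment count corrected for transcript length and library size. The members were thus chosen by the wildtype values at 3 and 4 hpf, which are given as a description without a test. The wildtype libraries at 4.5 hpf and every library of the other lines had no part in the choice.

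A zebrafish egg carries RNA laid down by the mother, and its own genome is transcribed only after several rapid cleavages. This switch is called zygotic genome activation, and the genes that come on at once include short genes for transcription factors that pattern the embryo, secreted signals, genes of the outer epithelium called the enveloping layer, and large families of zinc finger genes. The maternal transcription factors Pou5f3, Nanog and SoxB1, which reach the chromatin through nuclear pores, are known to be needed for it. Nup133 is a scaffold protein of the Y-complex of the nuclear pore, and Elys, encoded by ahctf1, recruits that complex to chromatin when pores are built after mitosis.

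The series asked how the loss or excess of these pore proteins bears on genome activation. Poly(A) RNA was measured in dechorionated whole embryos at 3, 4 and 4.5 hpf in 15 libraries. The lines were wildtype, MZnup133 (labelled a nup133 knockout, MZ being read as maternal-zygotic), Melys (labelled an elys knockout) and Tgnup133, which overexpresses nup133 from a transgene. The sources used here name neither the promoter of the transgene nor the alleles. Wildtype had 2 libraries per stage, 1 for the nup133 set (with MZnup133 and Tgnup133) and 1 for the elys set (with Melys), while each other line had 1 library per stage. The wildtype columns do not name their set and were assigned by the leading number they share with the columns of the other lines. The labels do not say whether libraries came from separate clutches, so p-values measure only the spread between these libraries, which may be technical. In the tests without wildtype libraries, lines or stages stood in for replicates, so differences between the lines entered that spread.

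Between 12356 and 13057 genes reached 1 FPKM in a library. Read counts were not analysed here, so depth is unknown. The targeted gene nup133 was at 0.431, 0 and 0.208 FPKM in MZnup133 at 3, 4 and 4.5 hpf, below all wildtype libraries (9.35 to 13.1 FPKM), and at 16.4 to 18.4 FPKM in Tgnup133. The level of ahctf1 RNA did not check the Melys label, since it was 13.5, 25.8 and 24.1 FPKM in Melys at the 3 stages and 18.7, 26.8 and 19.5 FPKM in its wildtype, lower at 3 and 4 hpf and higher at 4.5 hpf. The blastula genes pou5f3 (424 to 956 FPKM) and nanog (893 to 1329 FPKM) were high in every library, and no gene of the adult tissue and blood markers exceeded 7.10 FPKM. Mitochondrial transcripts took 7.29% to 10.2% of the FPKM in wildtype, 5.10% to 6.53% in MZnup133, 4.76% to 5.31% in Melys and 7.39% to 8.79% in Tgnup133, and their part in the results was not tested.

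In wildtype the first wave was led by nnr (nanor), an early zygotic gene, and by znf1004, a zinc finger gene. The level of nnr was 0.702, 261 and 530 FPKM at 3, 4 and 4.5 hpf in the nup133 set and 0.814, 298 and 466 FPKM in the elys set. Over the 170 members the median level went from 0 FPKM to 11.95 FPKM and then to 26.9 FPKM in the nup133 set. In the elys set the median went from 0 FPKM to 14.6 FPKM and to 26.0 FPKM. The wave made up 0.817% and 0.861% of all FPKM at 4 hpf in the sets, and 1.73% and 1.59% at 4.5 hpf. The levels at 4 hpf ran from just above the threshold to 298 FPKM, so the members spanned a wide range.

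**Figure D1:**
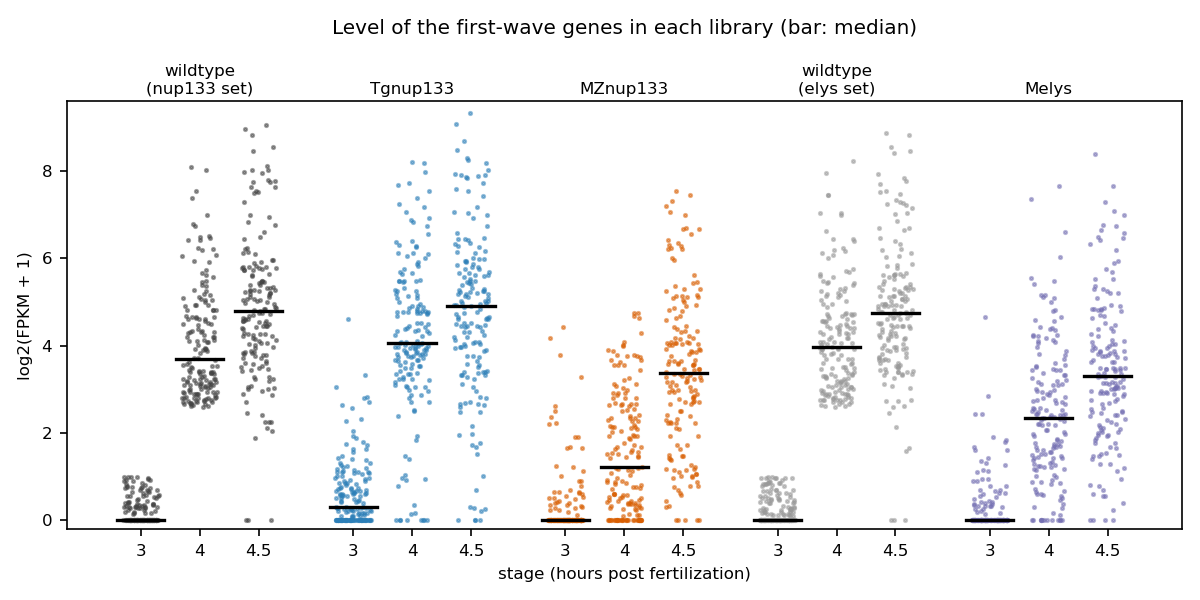
Each point is the level of 1 of the 170 first-wave genes in 1 library, as log2(FPKM + 1) on the y axis, and the black bar is the median. Stages are on the x axis within each line. At 4 hpf the Tgnup133 median (15.6 FPKM) lies above both wildtype medians, and those of Melys (4.08 FPKM) and MZnup133 (1.32 FPKM) lie below them.

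The names of the members fall into 87 ordinary gene names, 58 names taken from clones or clone-based gene models and 25 zinc finger (znf) names. Ordinary names include tbx16, tbxta, foxa3 and foxd3, which encode transcription factors of mesoderm, endoderm and neural crest. One symbol was missing from the file and was read as PPP1R3G from the gene table, and 13 member identifiers share their symbol with another identifier of the table. Reads from near-identical copies, such as the znf and drl genes, could have been split among copies upstream, so single values of these genes are uncertain. Just inside the threshold lay cdk5r1a, an activator of the kinase Cdk5, with 5.04 FPKM in its lower wildtype library at 4 hpf, gpd1b (5.09), drll.2 (5.12), neurl1ab (5.14) and FP236812.1 (5.15). Just outside lay CR450686.3 (4.91), si:dkey-237m9.1 (4.90), MYADM (4.89), si:dkey-199m13.4 (4.85) and the homeobox gene otx2a (4.85). Between 5 and 6 FPKM there were 33 members, and between 4 and 5 FPKM 29 other genes that were below 1 FPKM at 3 hpf.

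In both depleted lines the first wave was low at 4 hpf and still low at 4.5 hpf. In Tgnup133 its median level at 4 hpf was above both wildtype medians, at 15.6 FPKM beside 11.95 and 14.6 FPKM. It was near them at 4.5 hpf, at 28.9 FPKM beside 26.9 and 26.0 FPKM. At 4 hpf 43 of the 170 members were at 5 FPKM or more in MZnup133, 69 in Melys and 147 in Tgnup133, beside 170 in both wildtype libraries by the choice of members. Below 1 FPKM at that stage were 78 members in MZnup133, 33 in Melys and 15 in Tgnup133. At 4.5 hpf the members at 5 FPKM or more were 118 in MZnup133, 117 in Melys and 151 in Tgnup133, beside 159 and 163 in wildtype. The wave then made up 0.700% of all FPKM in MZnup133, 0.682% in Melys and 1.77% in Tgnup133. Whole embryos were measured, so fewer cells of a type and less RNA per cell cannot be told apart.

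**Figure D2:**
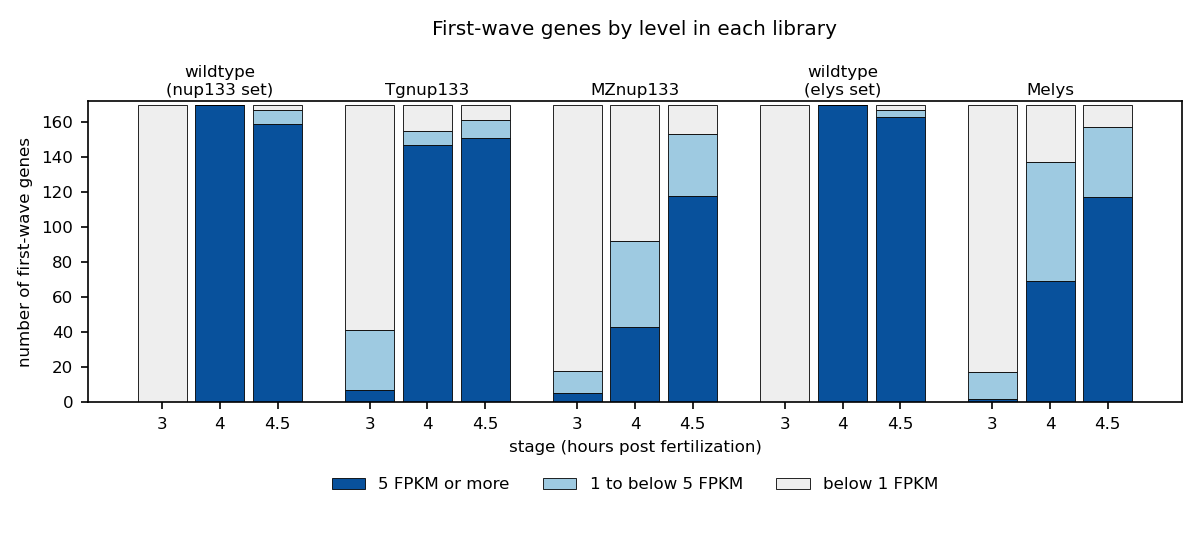
Bars give the number of first-wave genes at 5 FPKM or more, from 1 to below 5 FPKM and below 1 FPKM in each library, by stage within each line. MZnup133 goes from 43 genes at 5 FPKM or more at 4 hpf to 118 at 4.5 hpf, while wildtype has 170 and then 159 or 163.

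Against the wildtype library of its own set and stage, the median difference of the members on the log2(FPKM + 1) scale was -2.70 in MZnup133 at 4 hpf and -1.45 at 4.5 hpf. In Melys it was -1.81 and -1.44, and in Tgnup133 0.47 and 0.02. Over the 13493 genes tested the same medians were 0.13 and 0.29 in MZnup133, 0.07 and 0.15 in Melys, and -0.04 and -0.06 in Tgnup133. At 4.5 hpf, 148 members were below the matched wildtype in MZnup133, 149 in Melys and 81 in Tgnup133. The scale understates differences of genes with low levels, and the 4 hpf values share the wildtype libraries that chose the members. The wildtype libraries of the elys and nup133 sets differed from each other by a median of -0.14 at 4.5 hpf, with quartiles of -0.43 and 0.22.

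At 4.5 hpf, where the wildtype libraries had no part in the choice, most members lay below both wildtype libraries in each depleted line. The members were chosen as high in wildtype at 4 hpf, and 159 and 163 were still at 5 FPKM or more there at 4.5 hpf. The wildtype values of 4.5 hpf are thus not independent of the choice, and part of the contrast with all genes may follow from it. In MZnup133 141 of the 170 members lay below both and 16 above both, and over all genes tested the shares were 30.3% and 52.9%. In Melys 145 lay below both and 16 above both, beside 29.2% and 50.9% of all genes tested. In Tgnup133 55 lay below both and 70 above both, beside 42.8% and 27.3%. The same 131 members lay below both in MZnup133 and in Melys, which is 77.1% of the members beside 18.9% of all genes tested.

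The test of the 5 libraries at 4.5 hpf called no gene in any line. It was a limma fit whose spread came from the pair of wildtype libraries, and 169 of the 170 members passed its filter, which asked for 1 FPKM or more as the mean of 15 libraries. The member left out was BX294387.1. The share of all genes called was 0% in both directions for MZnup133, Melys and Tgnup133, and the smallest adjusted p was 0.159, 0.236 and 0.676. At an unadjusted p below 0.05 there were 102 members lower and 4 higher in MZnup133, 106 lower and 5 higher in Melys, and 16 lower and 6 higher in Tgnup133. Over all genes, in either direction, there were 3178 (23.6%), 2145 (15.9%) and 944 (7%) in the lines. The members were chosen as high in wildtype at 4 hpf, so their counts are descriptions.

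A fit of all 15 libraries with a control set term called 82 members lower and 3 higher in MZnup133 at 4.5 hpf, beside 8% and 13.5% of all genes. In Melys it called 34 lower and 1 higher, beside 1.62% and 1.36%. In Tgnup133 it called none of the members, beside 0.0222% lower and 0.00741% higher. At an unadjusted p below 0.05 it had 18 members lower and 10 higher in Tgnup133, of 169 tested, beside 15.3% of all genes in either direction, so their share was near that of all genes. All of the residual spread of this fit came from the pairs of wildtype libraries at 3, 4 and 4.5 hpf, and so did the control set term. The pairs at 3 and 4 hpf chose the members, and the choice kept all their values at 3 hpf low. A small spread there makes members easier to call than other genes. The counts of members thus describe them and cannot be weighed against the shares of all genes.

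The members also came up in the lines that had no part in their choice. From 3 to 4 hpf, over MZnup133, Melys and Tgnup133, 31 of 169 members rose and none fell, beside 0.548% of all genes rising and 0.0963% falling. The members passed the filter of this test partly through their wildtype levels, so the count describes them and gives no support of its own. The 3 lines served as the replicates of a stage, so differences between lines in the rise entered the spread. At an unadjusted p below 0.05 115 members were higher and 0 lower, beside 13.5% of all genes in either direction. The count of 31 became 1 without the MZnup133 libraries, 0 without Melys and 0 without Tgnup133, and the 74 of all genes became 1, 0 and 4. The median change was 3.61 (log2) in Tgnup133, 2.04 in Melys and 0.75 in MZnup133. The gene cldne, for a claudin of the enveloping layer, rose by 4.50 ± 0.39 (log2, SE, 9 libraries) with an adjusted p of 0.0165. The receptor gene ackr3b, for a scavenger of the chemokine Cxcl12 and chosen after its values were seen, rose by 3.62 ± 0.36 with 0.0167.

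From 4 to 4.5 hpf no member passed the test, beside 0% of all genes in either direction, although 164 of the 170 members had a positive mean change over the 3 lines, beside 41.0% of all genes. At an unadjusted p below 0.05 48 of 169 members were higher, beside 11.8% of all genes in either direction. The median change was 1.94 in MZnup133, 0.96 in Melys and 0.46 in Tgnup133, and 0.79 and 0.66 in the wildtype sets. From 3 to 4.5 hpf, a comparison added after the values were seen, 128 of 169 members rose and none fell, beside 6.79% of all genes rising and 9.02% falling. That count became 31 without the MZnup133 libraries, 0 without Melys and 71 without Tgnup133, and the 916 of all genes became 62, 0 and 339. Members passed the filter of these comparisons partly through their wildtype levels as well, so these counts too are descriptions.

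With no wildtype library in the test at all, the first wave was lower in MZnup133 than in Tgnup133. At 4 and 4.5 hpf together, 88 of the 169 members tested were lower in MZnup133 and 2 were higher, beside 10.1% and 20.1% of all genes. The median difference of the members was -2.09 (log2) and that of all genes 0.29. The 2 stages served as the replicates of a line, since no line in this test had replicate libraries within a stage. The spread of this fit came from the 6 libraries of the 3 lines at the 2 stages. Differences between the lines, Melys included, in the change from 4 to 4.5 hpf entered that spread. The SE and adjusted p of this test, given below for single genes, measure that spread and not one between replicate libraries. Without the Melys libraries no gene was called. With a pseudocount of 0.1 FPKM 64 members were lower and 3 higher, beside 1203 and 2219 of all genes. Then zic2b, snai1b, aplnra, admp, spry2 and cldnb, named below, no longer passed (adjusted p 0.0749, 0.0583, 0.0574, 0.0548, 0.0807 and 0.0605). With median-ratio scaling 109 members were lower and 2 higher, and the split over all genes turned from 2707 higher and 1365 lower to 1876 and 2337. The members passed its filter partly through their wildtype levels, so the count describes them and gives no support of its own.

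The members on a hand-made list of transcription factor genes were lower in MZnup133 than in Tgnup133 in most cases. The list held 14 members, of which asb11, for a ubiquitin ligase subunit, is no transcription factor. Of the 14 listed, 12 were lower in MZnup133 than in Tgnup133 by the test (85.7%), beside 52.1% of all members tested and 10.1% of all genes. The 14 also had higher levels, with a wildtype median of 49.2 FPKM at 4.5 hpf beside 26.6 FPKM for all members. The part of level in the share called was not tested. At 4.5 hpf 13 lay below both wildtype libraries in MZnup133 and 13 in Melys. The shares of all members were 82.9% and 85.3%, and those of all genes tested 30.3% and 29.2%. Their median difference from the matched wildtype at 4.5 hpf was -2.47 (log2) in MZnup133, -1.49 in Melys and 0.29 in Tgnup133.

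The T-box gene tbx16, needed for cells to leave the midline as mesoderm, was listed at 0 in all libraries at 3 hpf. At 4 and 4.5 hpf it had 47.8 and 199 FPKM in wildtype of the nup133 set, 38.7 and 153 FPKM in wildtype of the elys set, 82.7 and 242 FPKM in Tgnup133, 0.452 and 19.0 FPKM in MZnup133 and 1.40 and 29.7 FPKM in Melys. Both depleted lines, with 1 library each per stage, were below wildtype and Tgnup133 at both stages, with no overlap. At 4 hpf the choice of members favoured high wildtype values. The difference of MZnup133 from Tgnup133 was -4.72 ± 0.61 (log2, SE) with an adjusted p of 0.0156. Its relative tbxta (brachyury), which specifies the notochord and tail, had 8.76 and 39.8 FPKM in wildtype of the nup133 set, 9.56 and 34.5 FPKM in that of the elys set, 20.8 and 84.0 FPKM in Tgnup133, 6.98 and 15.1 FPKM in MZnup133 and 3.51 and 11.4 FPKM in Melys. For tbxta the difference of MZnup133 from Tgnup133 was -1.93 ± 0.29 with an adjusted p of 0.0183.

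The gene nnr, highest of the wave by the wildtype mean at 4 hpf, had 10.9 and 101 FPKM in MZnup133 at 4 and 4.5 hpf, 45.6 and 58.3 FPKM in Melys and 294 and 414 FPKM in Tgnup133. Tgnup133 lay between the wildtype libraries at 4 hpf and below both at 4.5 hpf, and both depleted lines were far below at both stages. MZnup133 differed from Tgnup133 by -3.33 ± 0.72 with an adjusted p of 0.0333. The forkhead gene foxa3, expressed in early endoderm and axial mesoderm, had 15.2 and 59.1 FPKM in wildtype of the nup133 set and 14.7 and 41.3 FPKM in that of the elys set. It had 17.6 and 94.2 FPKM in Tgnup133, 0 and 6.62 FPKM in MZnup133 and 1.67 and 24.8 FPKM in Melys. Its difference of MZnup133 from Tgnup133 was -3.93 ± 0.31 with an adjusted p of 0.0102.

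The ventral repressor genes vent and ved, which act below BMP signals, were also low. The difference of MZnup133 from Tgnup133 was -3.54 ± 0.26 with an adjusted p of 0.00991 for vent and -1.99 ± 0.27 with 0.016 for ved. The zinc finger factor zic2b (-3.38 ± 0.71, adjusted p 0.0306) of neural ectoderm, snai1b (-3.64 ± 0.61, 0.0214) of migrating mesoderm and gata3 (-2.18 ± 0.35, 0.0198) of ventral ectoderm were lower too. Forkhead genes foxd3 and foxb1a did not pass, at -1.67 ± 0.60 (0.0943) and -2.36 ± 0.75 (0.0717). At 4.5 hpf foxd3 had 26.7 and 26.4 FPKM in wildtype, 20.5 FPKM in MZnup133, 27.8 FPKM in Melys and 31.5 FPKM in Tgnup133. The lines other than wildtype thus lay on both sides of it.

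**Figure D3:**
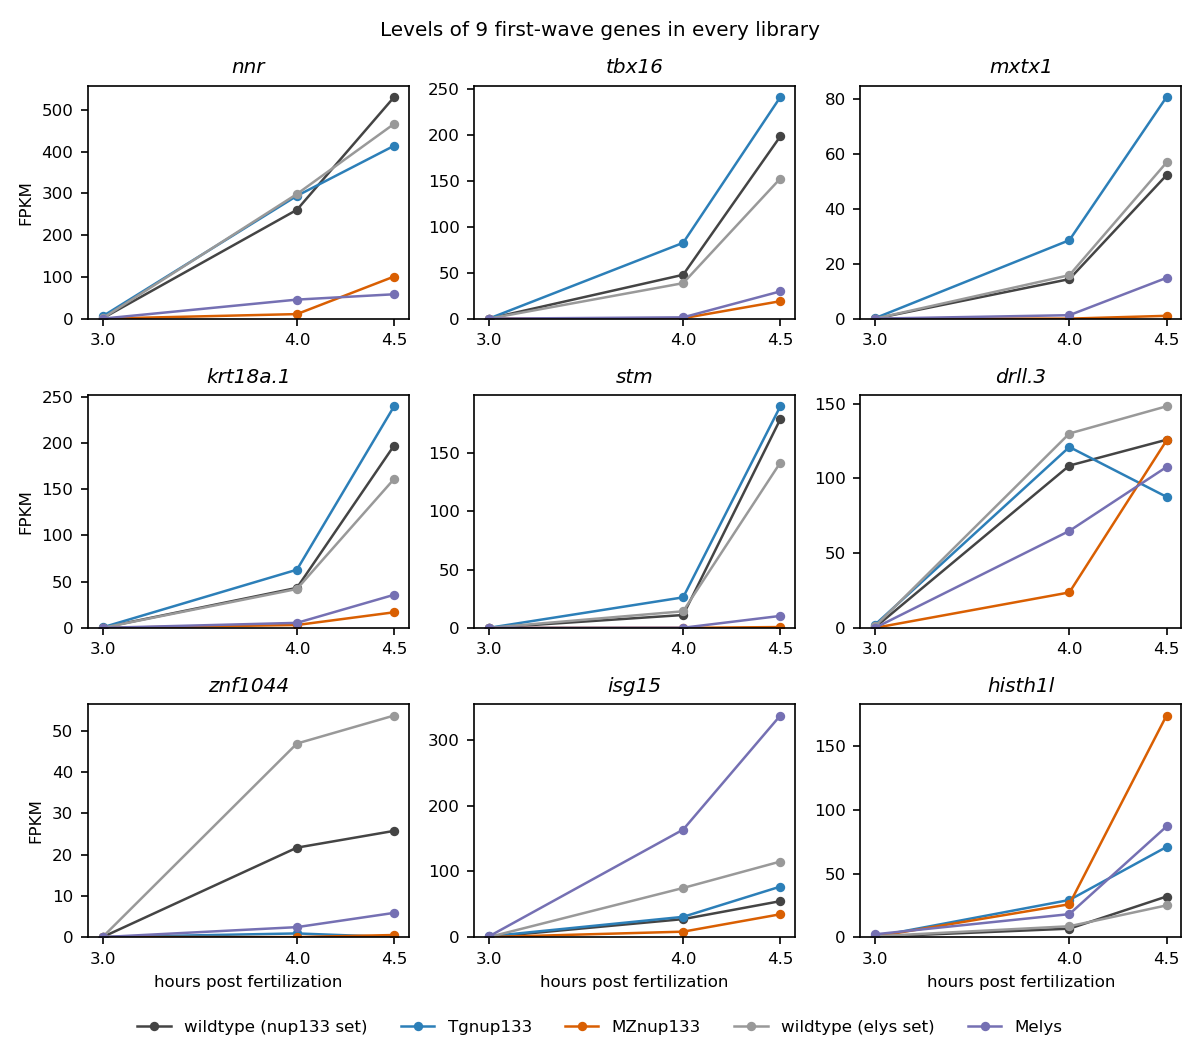
Levels in FPKM (y axis, own scale from 0 for each gene) at 3, 4 and 4.5 hpf (x axis) of 9 first-wave genes, with 1 line for each of the 5 series of libraries. The genes nnr, tbx16, mxtx1, krt18a.1 and stm are low in MZnup133 and Melys, znf1044 is low in Tgnup133 as well, isg15 is highest in Melys, and histh1l reaches 174 FPKM in MZnup133.

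Signalling genes of the wave were also mostly lower in the depleted lines. The list held 10 members, among them has2, which encodes a hyaluronan synthase, and isg15, which encodes a ubiquitin-like protein of the interferon response. Of these 10, 6 were lower in MZnup133 than in Tgnup133 (60%) and none was higher. This share was near the 52.1% of all members tested, beside 10.1% of all genes. At 4.5 hpf 9 lay below both wildtype libraries in MZnup133, 8 in Melys and 2 in Tgnup133. The shares of all members below both were 82.9%, 85.3% and 32.4%.

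Among ligands, fgf17 had 28.1 and 31.5 FPKM in wildtype at 4.5 hpf, 1.79 FPKM in MZnup133, 3.99 FPKM in Melys and 54.5 FPKM in Tgnup133. It differed between MZnup133 and Tgnup133 by -3.89 ± 0.37 with an adjusted p of 0.0122. The ligand gene apela (toddler), whose peptide guides gastrulating cells, was lower in Melys than in MZnup133, at 0.723 and 15.5 FPKM, with 37.2 and 29.9 FPKM in wildtype and 42.0 FPKM in Tgnup133. That of its receptor aplnra was 15.6 FPKM in MZnup133, 12.5 FPKM in Melys, 53.7 and 48.4 FPKM in wildtype and 69.2 FPKM in Tgnup133. The difference of MZnup133 from Tgnup133 passed for aplnra (-3.22 ± 0.65, adjusted p 0.0294) and not for apela (-2.61 ± 0.88, 0.0829). The BMP-type ligand admp (-1.82 ± 0.43, 0.0397) passed as well, while bmp2b did not, with an adjusted p of 0.0685.

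The FGF receptor gene fgfr4, outside the list, had 52.2 and 43.4 FPKM in wildtype at 4.5 hpf, 8.96 FPKM in MZnup133, 14.0 FPKM in Melys and 60.1 FPKM in Tgnup133, and its difference between MZnup133 and Tgnup133 was -4.00 ± 0.68 with an adjusted p of 0.022. It was chosen after its values were seen. The FGF inhibitor spry2 was lower as well, by the same test (-2.43 ± 0.51, 0.0312), and so was has2 (-4.11 ± 0.58, 0.017). The Wnt receptor gene fzd8a (-1.32 ± 0.42, 0.0735) and the Wnt regulator dact1 (-1.09 ± 0.69, 0.272) did not pass. At 4.5 hpf dact1 had 13.5 FPKM in MZnup133 and 13.4 FPKM in Melys, above both wildtype libraries, the higher of which had 11.7 FPKM.

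The members that mark the extraembryonic layers were low in MZnup133 in every case. The enveloping layer list held cldnb, cldne and krt18a.1, and all 3 were lower in MZnup133 than in Tgnup133. By the same test 52.1% of all members and 10.1% of all genes were lower. The keratin gene krt18a.1 had 43.2 and 197 FPKM at 4 and 4.5 hpf in wildtype of the nup133 set, 42.0 and 161 FPKM in that of the elys set, 62.9 and 239 FPKM in Tgnup133, 3.08 and 16.8 FPKM in MZnup133 and 5.40 and 35.7 FPKM in Melys. The depleted lines, with 1 library each per stage, did not overlap with the others at either stage. At 4 hpf the choice of members favoured high wildtype values. MZnup133 differed from Tgnup133 by -3.86 ± 0.21 with an adjusted p of 0.0088, and for cldne by -2.53 ± 0.13 with 0.0088.

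The yolk syncytial layer list held mxtx1, a homeobox gene of that layer, and apoc1, for an apolipoprotein. At 4.5 hpf mxtx1 had 52.3 and 56.9 FPKM in wildtype, 80.7 FPKM in Tgnup133, 14.9 FPKM in Melys and 1.02 FPKM in MZnup133. Its difference between MZnup133 and Tgnup133 was -5.11 ± 0.50 with an adjusted p of 0.0123, and that of apoc1 was -3.54 ± 0.30 with 0.0109. Most markers of both layers were lower in the depleted lines than in wildtype at 4.5 hpf, but not all. The marker lists hold the members krt18a.1 and mxtx1, so the sums below are partly the members' own levels. Of the wildtype sums at 4.5 hpf, krt18a.1 made up 197 and 161 FPKM and mxtx1 52.3 and 56.9 FPKM. The summed level of 7 enveloping layer markers at 4.5 hpf was 320 to 391 FPKM in wildtype, 530.1 FPKM in Tgnup133, 170 FPKM in MZnup133 and 78.9 FPKM in Melys, with krt5 and cyt1 at 0 in both depleted lines. Of the 170 FPKM in MZnup133, 143 FPKM was grhl3, which went the other way, with 21.4 and 14.2 FPKM in wildtype, 21.3 FPKM in Melys and 0.425 FPKM in Tgnup133. The sum of 5 yolk syncytial layer markers was 133 to 151 FPKM in wildtype, 198 FPKM in Tgnup133, 21.8 FPKM in MZnup133 and 78.5 FPKM in Melys. Of the Melys sum 61.2 FPKM was mxtx2, which had 62.4 and 52.8 FPKM in wildtype, 19.9 FPKM in MZnup133 and 49.7 FPKM in Tgnup133. The part of these layers in the other results was not tested.

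Other ordinary genes included those of structural and replication proteins. The gene stm (starmaker), which encodes an otolith matrix protein in later larvae, had 179 and 142 FPKM in wildtype at 4.5 hpf, 190 FPKM in Tgnup133, 10.3 FPKM in Melys and 0.693 FPKM in MZnup133. For stm the difference of MZnup133 from Tgnup133 was -5.79 ± 0.69 with an adjusted p of 0.0148. The helicase gene mcm6, part of the replication machinery and chosen after its values were seen, had 27.1 and 29.2 FPKM in wildtype at 4.5 hpf, 43.5 FPKM in Tgnup133, 4.01 FPKM in MZnup133 and 7.12 FPKM in Melys. The oncogene homolog mycn had 32.2 and 38.1 FPKM in wildtype, 29.5 FPKM in Tgnup133, 6.70 FPKM in MZnup133 and 15.3 FPKM in Melys.

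The immediate early genes ier2a and ier2b differed from each other. At 4.5 hpf ier2b had 11.1 and 10.6 FPKM in wildtype, 2.11 FPKM in MZnup133, 1.46 FPKM in Melys and 17.5 FPKM in Tgnup133. At that stage ier2a had 21.0 and 14.7 FPKM in wildtype, 10.9 FPKM in MZnup133, 20.3 FPKM in Melys and 14.7 FPKM in Tgnup133. The difference of MZnup133 from Tgnup133 was -2.64 ± 0.44 (adjusted p 0.0211) for ier2b and -2.20 ± 0.91 (0.126) for ier2a.

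By kind of name, the test of MZnup133 against Tgnup133 called 58 of 87 ordinary gene names lower (66.7%), 11 of 25 znf names (44%) and 19 of 57 clone names tested (33.3%). The share was 52.1% over all members tested and 10.1% over all genes. The median differences of these groups were -2.54, -1.93 and -1.58 on the log2 scale. Against both wildtype libraries at 4.5 hpf, 22 of 25 znf genes lay lower in MZnup133 and 24 of 25 in Melys, beside 82.9% and 85.3% of all members. In Tgnup133, 10 of the 25 lay below both and 7 above both, beside 32.4% and 41.2% of all members.

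Among clone names, si:ch211-152c2.3 was one of the highest, with 454 and 455 FPKM in wildtype at 4.5 hpf, 638 FPKM in Tgnup133, 72.9 FPKM in MZnup133 and 106 FPKM in Melys. Its difference between MZnup133 and Tgnup133 was -4.24 ± 0.53 with an adjusted p of 0.0153. Among the members furthest below the wildtype mean in MZnup133 at 4.5 hpf was si:dkey-238d18.15, listed at 0 in MZnup133 at all 3 stages. It had 68.7 and 65.5 FPKM in wildtype at 4.5 hpf, 86.7 FPKM in Tgnup133 and 13.7 FPKM in Melys. The model BX928743.1 was listed at 0 in MZnup133, Melys and Tgnup133 at 3 and 4 hpf and then had 32.2, 9.91 and 14.6 FPKM at 4.5 hpf, where wildtype had 33.9 and 17.7 FPKM. Some clone-named members had no steady course. CU468826.1 had 17.9 and 15.1 FPKM in wildtype at 4 hpf and was listed at 0 in both libraries at 4.5 hpf, while MZnup133 had 20.5 FPKM at 3 hpf and 0 afterwards. CR848791.1 had 9.03, 0 and 20.9 FPKM in Tgnup133 and 24.1, 33.2 and 4.26 FPKM in Melys over the stages.

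A small set of members was near 0 in Tgnup133 at 4 hpf. Of the 15 members below 1 FPKM there, 13 were also below 1 FPKM in MZnup133 and 6 in Melys at that stage, and 6 of the 15 had znf names. Of all 170 members, 78 were below 1 FPKM in MZnup133 and 33 in Melys at 4 hpf, and 25 had znf names. At 4.5 hpf 9 of the 15 were still below 1 FPKM in Tgnup133, and 7 were at 5 FPKM or more in Melys. At that stage 8 of them were below 3 FPKM in Tgnup133 while at 5 FPKM or more in both wildtype libraries. The gene znf1044 had 21.7 and 25.8 FPKM at 4 and 4.5 hpf in wildtype of the nup133 set, 47.0 and 53.8 FPKM in that of the elys set, 0.884 and 0 FPKM in Tgnup133, 0 and 0.501 FPKM in MZnup133 and 2.41 and 5.87 FPKM in Melys. All 3 lines lay far below wildtype. The gene znf999 had 18.5 and 36.0 FPKM in wildtype at 4.5 hpf, 1.03 FPKM in Tgnup133, 0.265 FPKM in MZnup133 and 6.59 FPKM in Melys. The formin gene fmnl3, for an actin-nucleating protein, had 17.0 and 5.19 FPKM in wildtype, 0 FPKM in Tgnup133, 0.990 FPKM in MZnup133 and 2.43 FPKM in Melys, with the wildtype libraries themselves more than 3 times apart.

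The drl genes, which encode zinc finger proteins of a zebrafish family, are 4 direct neighbours in the gene order of the GRCz12tu annotation (drll.3, drll.2, drl, drll.1), and drl and drll.1 were added after their values were seen. Their levels per length were unequal. At 4.5 hpf drll.3 had 126 and 148 FPKM in wildtype, 125 FPKM in MZnup133, 108 FPKM in Melys and 87.7 FPKM in Tgnup133, after 23.7 FPKM in MZnup133 at 4 hpf against 109 and 130 FPKM in wildtype. So drll.3 was low in MZnup133 at 4 hpf and near wildtype at 4.5 hpf. By contrast drl had 23.4 and 18.7 FPKM in wildtype at 4.5 hpf, 11.8 FPKM in MZnup133, 3.77 FPKM in Melys and 20.5 FPKM in Tgnup133. Next to it drll.1 had 17.8 and 21.0 FPKM in wildtype, 8.01 FPKM in MZnup133, 8.96 FPKM in Melys and 16.5 FPKM in Tgnup133. The small drll.2 had 7.10 and 7.66 FPKM in wildtype, 7.97 FPKM in MZnup133, 4.57 FPKM in Melys and 4.54 FPKM in Tgnup133. Of the 170 members 104 had a unique match in that annotation, and these 4 genes gave its 3 directly adjacent pairs.

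Some members were higher in the depleted lines. Above both wildtype libraries at 4.5 hpf were 16 members in MZnup133 and 16 in Melys, beside 52.9% and 50.9% of all genes tested. Those above both at 4 hpf as well were gadd45ga, histh1l and zgc:173720 in MZnup133. In Melys they were gadd45ga, histh1l, isg15, si:ch211-239d6.2, arrdc3b, dharma and tagapa. The choice of members favoured high wildtype values at 4 hpf, so the shortness of these lists follows partly from it. The matching shares of all genes were not computed. The linker histone gene histh1l had 6.62 and 31.9 FPKM at 4 and 4.5 hpf in wildtype of the nup133 set, 8.52 and 24.9 FPKM in that of the elys set, 25.9 and 174 FPKM in MZnup133, 18.1 and 87.1 FPKM in Melys and 29.2 and 70.9 FPKM in Tgnup133. It was thus higher than wildtype in all 3 lines, Tgnup133 included, and MZnup133 and Tgnup133 differed by 0.56 ± 0.36 (adjusted p 0.281).

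The stress gene gadd45ga, which acts in the response to DNA damage and in growth arrest, was called higher in MZnup133 than in Tgnup133, by 1.98 ± 0.37 (log2) with an adjusted p of 0.0251. It had 14.9 and 17.1 FPKM at 4 and 4.5 hpf in MZnup133, 17.8 and 8.78 FPKM in Melys, 4.77 and 2.21 FPKM in Tgnup133, and 5.74 and 3.33 FPKM or 5.79 and 1.98 FPKM in the wildtype sets. The depleted lines did not overlap with the others. The gene zgc:173720 was also called, with an adjusted p of 0.0328, and at 4.5 hpf it had 73.3 FPKM in MZnup133, 16.2 FPKM in Melys, 5.22 FPKM in Tgnup133 and 11.6 and 4.52 FPKM in wildtype. Neither gene passed without the Melys libraries.

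In Melys alone of the depleted lines isg15 was high, at 163 and 337 FPKM at 4 and 4.5 hpf. Its wildtype had 74.7 and 115 FPKM, while MZnup133 had 8.23 and 34.7 FPKM, its wildtype 27.3 and 54.6 FPKM, and Tgnup133 30.8 and 76.8 FPKM. The wildtype sets themselves differed more than 2-fold in isg15. The unnamed gene model si:ch211-239d6.2 had 202 and 200 FPKM in Melys, 40.9 and 47.9 FPKM in its wildtype, 2.91 and 14.2 FPKM in MZnup133, 16.1 and 32.7 FPKM in wildtype of the nup133 set and 15.1 and 21.7 FPKM in Tgnup133. No test of the difference between the depleted lines was run.

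More members reached 1 FPKM at 3 hpf in Tgnup133 than in the depleted lines. At that stage 41 of the 170 members reached 1 FPKM in Tgnup133, 18 in MZnup133 and 17 in Melys, beside 0 in wildtype by the choice of members. Of all 23726 genes, 12362, 12459 and 12356 reached 1 FPKM in these 3 lines. At 5 FPKM or more the counts were closer, with 7 members in Tgnup133, 5 in MZnup133 and 2 in Melys. The level in Tgnup133 was above both other lines for 78 members (45.9%), beside 31.9% of all genes tested. At 3 hpf nnr had 5.55 FPKM in Tgnup133 and was listed at 0 in MZnup133 and Melys. The clone-named BX649341.1 had 23.6 FPKM in Tgnup133 and 0 in the depleted lines. The highest member at 3 hpf was CU468826.1 in MZnup133, at 20.5 FPKM, and CR848791.1 in Melys, at 24.1 FPKM. At 4 hpf Tgnup133 lay above both wildtype libraries for 109 members (64.1%), beside 31.3% of all genes tested, although the choice had favoured high wildtype values at that stage. At 4.5 hpf 70 lay above both and 55 below both, as given above. Each of these counts rests on 1 Tgnup133 library per stage.

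MZnup133 and Melys, which have separate wildtype libraries, ranked the members in a related but not equal way. Over the 170 members the differences from the matched wildtype at 4.5 hpf had a Pearson r of 0.52 and a Spearman rho of 0.50, and at 4 hpf a Pearson r of 0.56. Over all genes tested r was 0.42 at 4.5 hpf and 0.34 at 4 hpf. These are descriptions across genes, which are not independent, and the lines were processed alike. At 4.5 hpf 138 members were below the matched wildtype in both lines.

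**Figure D4:**
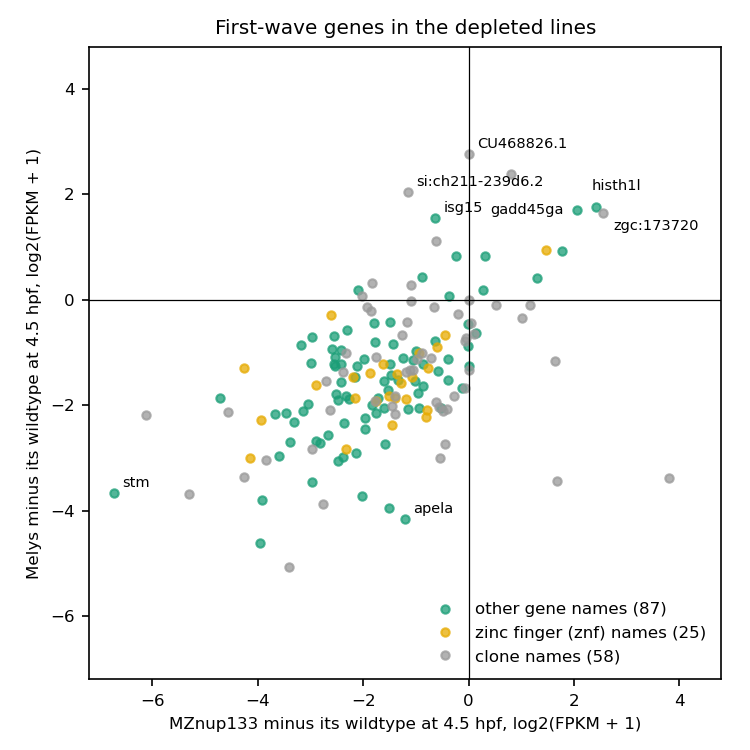
Each point is 1 of the 170 first-wave genes, with its log2(FPKM + 1) difference from the matched wildtype at 4.5 hpf in MZnup133 on the x axis and in Melys on the y axis, coloured by kind of name. Most points (138) are negative in both lines, stm is the lowest in MZnup133 at -6.73, and isg15 and si:ch211-239d6.2 are above 0 in Melys and below 0 in MZnup133.

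Some members were still below 1 FPKM at 4.5 hpf, namely 17 in MZnup133, 13 in Melys and 9 in Tgnup133. In MZnup133 13 of these 17 were at 5 FPKM or more in both wildtype libraries, stm and si:dkey-238d18.15 among them. Only 4 were below 1 FPKM in both depleted lines: BX294387.1, cdk5r1a, nfil3-6 and si:dkey-165a24.10. Of these, BX294387.1 was listed at 0 in both wildtype libraries at 4.5 hpf as well, and nfil3-6 had only 2.71 and 2.14 FPKM there. For si:dkey-165a24.10 wildtype had 13.4 and 7.21 FPKM. The kinase activator gene cdk5r1a had 22.8 and 39.2 FPKM in wildtype, 28.7 FPKM in Tgnup133, 0.537 FPKM in MZnup133 and 0.630 FPKM in Melys. In Melys the list also held apela and rx3, an eye field homeobox gene, with 0.185 FPKM in Melys and 2.80 FPKM in MZnup133 for rx3.

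By 4.5 hpf the depleted lines had not reached the wildtype level of 4 hpf for most members. In MZnup133 48 of the 170 members were above the matched wildtype at 4 hpf, with a median difference of -0.51 (log2). In Melys 37 were above it, with a median of -0.77. In Tgnup133 128 were above it, with a median of 0.90. The wildtype libraries at 4 hpf chose the members for high values, so these are descriptions.

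The members that went on rising steeply after 4 hpf in Tgnup133 were lower in the depleted lines than the others. The change in Tgnup133 from 4 to 4.5 hpf shares no library with the difference of MZnup133 or Melys from the wildtype mean at 4.5 hpf. For the 57 members with the largest rise in Tgnup133 (0.88 to 4.46, log2) the median difference was -2.19 in MZnup133 and -1.91 in Melys. For the 57 with the smallest change (-2.82 to 0.20) it was -0.72 and -1.25. Over the 170 members Spearman's rho was -0.46 for MZnup133 and -0.30 for Melys, and over all genes tested it was -0.43 and -0.41, which is of similar size.

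**Figure D5:**
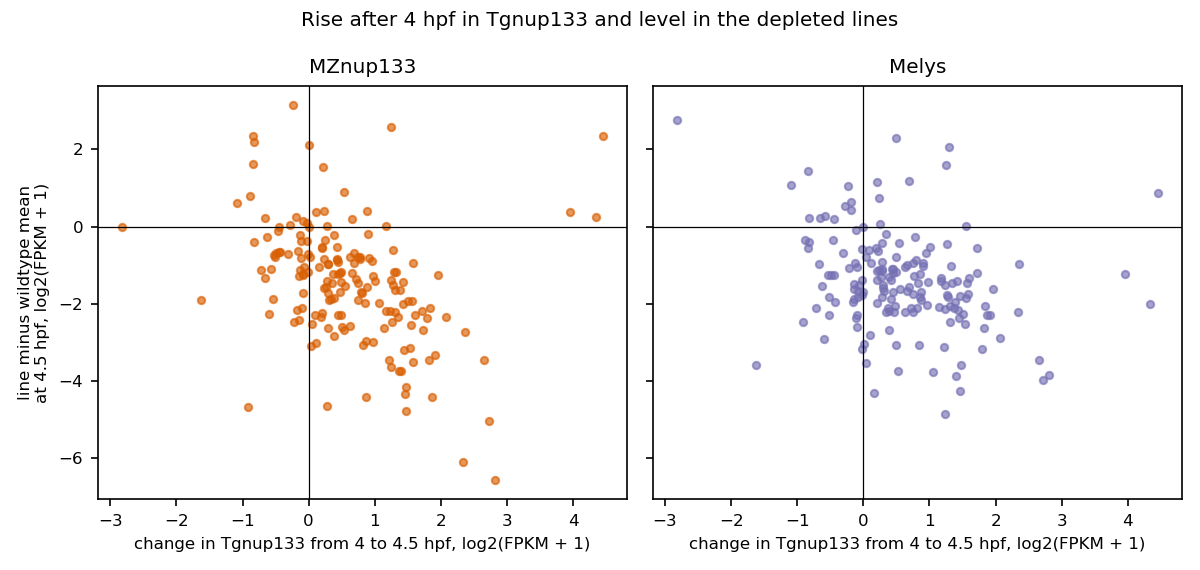
Each point is 1 of the 170 first-wave genes, with its change in Tgnup133 from 4 to 4.5 hpf on the x axis and the difference of MZnup133 (left) or Melys (right) from the wildtype mean at 4.5 hpf on the y axis, both on the log2(FPKM + 1) scale. Points with a large rise lie mostly below 0, with a Spearman rho of -0.46 on the left and -0.30 on the right.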

How the data were processed

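The deposited values were FPKM per gene and library, computed by the authors. The submitters' processing notes name Trim Galore, Cufflinks 2.2.1, STAR 2.5.3a and the build GRCz11, and the sources used here give no options. Of 23800 lines, 74 repeated another and were dropped. An FPKM of 0 can be an absent transcript or a failed estimate. Tests used limma 3.58.1 in R 4.3.3 on log2(FPKM + 1) with a variance trend, two-sided, over 13493 genes whose mean level in the 15 libraries reached 1 FPKM, with Benjamini-Hochberg adjustment over all of them and a threshold of 0.05. The fits had 1 residual and 1.74 prior degrees of freedom (5 libraries at 4.5 hpf), 4 and 3.02 (9 libraries, line as covariate), 2 and 2.66 (6 libraries, stage as covariate) and 2 and 2.36 (15 libraries), so lone libraries were assumed to vary like the others. The scripts were tested on simulated data. Members, role lists and tests were chosen with earlier results of these data known. Genes named are the highest in wildtype at 4 hpf, the extremes of each line at 4.5 hpf and of the change after 4 hpf, list members, those nearest the threshold and those called when 5 or fewer, plus others said to be chosen after their values were seen or counted by a stated limit. The alternatives were another pseudocount, filter, scaling, control set, membership rule and the leaving out of libraries. Some items of the lists are not reported here. No sequences or coordinates are printed.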

Additional observations from a re-analysis of the deposited data

Results flagged for a closer look

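For 2 flagged members the difference from the matched wildtype had opposite signs in MZnup133 and Melys. Each line has 1 library per stage, and no test of this contrast was run. For both genes wildtype of the elys set was itself higher than wildtype of the nup133 set at 4 and 4.5 hpf. Whether this had a part in the contrast was not tested. These 2 members were not the only ones. At 4.5 hpf 6 members (3.53%) lay below both wildtype libraries in MZnup133 and above both in Melys, and 5 (2.94%) the other way. Over all genes tested these shares were 6.83% and 7.03%. For isg15 the difference from the matched wildtype at 4.5 hpf was 2.18 (log2) higher in Melys than in MZnup133. For si:ch211-239d6.2 it was 3.19 higher. Both genes were above wildtype in Melys and below it in MZnup133 at 4 and at 4.5 hpf.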

How the results depend on the processing

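The labels give no replicate numbers, so no pairing beyond the control set could be used. The libraries are tied only by control set, which is a term of the fit of 15 libraries and takes the place of a block there. Of the members called in MZnup133 at 4.5 hpf (0 in the test of 5 libraries), 4 were lower with no filter on low values (28 of all genes), 82 lower and 3 higher in the fit of 15 libraries, and 17 to 59 lower and 1 to 3 higher when either wildtype library was left out of a fit of all others (124 to 476 and 99 to 895 of all genes). In Melys 6 were lower with no filter (40 of all genes), and 34 lower and 1 higher with 15 libraries. The 31 members called higher from 3 to 4 hpf (74 of all genes) became 51 with a pseudocount of 0.1 FPKM (114 of all genes). They became 0 with no filter (0 of all genes) and 0 to 1 with a line left out (0 to 4 of all genes). A stricter membership rule (below 0.1 FPKM and at 10 FPKM or more) left 40 members, of which 11 were called. The 128 from 3 to 4.5 hpf (916 of all genes) became 34 with no filter (214 of all genes) and 0 to 71 with a line left out (0 to 339 of all genes). Under the stricter rule 33 of the 40 members were called. The 88 lower and 2 higher in MZnup133 against Tgnup133 (1365 and 2707 of all genes) became 0 and 0 with no filter or without Melys (0 and 0 of all genes). They became 24 and 0 with 3 hpf added (758 and 1540 of all genes). Under the stricter rule 23 of the 40 members were lower and 0 higher. The cause was not tested, beyond the fewer members or libraries that these settings leave. Medians against the matched wildtype kept their sign. In MZnup133 at 4 hpf the median was -3.45 with a pseudocount of 0.1, -2.82 against the other wildtype set and -3.34 under the stricter rule. At 4.5 hpf it was -1.30 against the other set and -1.77 with median-ratio scaling. In Melys at 4 hpf these were -1.98, -1.64 and -2.13, and at 4.5 hpf -1.55 with a pseudocount of 0.1, -1.50 against the other set, -1.61 with median-ratio scaling, -1.40 with equal library sums and -1.55 under the stricter rule. In Tgnup133 they were 0.40 against the other set, 0.53 with median-ratio scaling and 0.58 under the stricter rule at 4 hpf, and 0.11 and 0.13 for the first pair at 4.5 hpf. Of the named members, the difference of MZnup133 from Tgnup133 changed sign for CR848791.1 (-0.0534 with 3 hpf added) and nfil3-6 (-0.0618 with median-ratio scaling), which were not called. Lost calls were far more common. Over the settings, 123 results of named members no longer passed and 7 newly passed. With 3 hpf added, tbx16, foxa3, stm, fgf17, has2, zic2b, ved and gadd45ga were among those that no longer passed. Among those that still passed were nnr, tbxta, vent, gata3, krt18a.1, cldne, mxtx1 and apoc1. Depth is unknown, so its limit on low members cannot be given.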
